A study of Mus musculus with 2 samples.

Results

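Ribosomal protein genes were described in the lungs of newborn mice. The family was taken as every protein-coding gene in both deposited gene tables whose mouse symbol follows the ribosomal protein naming pattern (Rpl or Rps with a number, Rplp0 to Rplp2, and Rpsa), which gave 83 of 43346 genes, or 83 of 21474 protein-coding genes. Of the 83 genes, 51 belong to the large and 32 to the small ribosomal subunit. By the pairs listed for this description, 6 of them are paralogs of another member (Rpl3l, Rpl7l1, Rpl10l, Rpl22l1, Rpl39l and Rps27l), and the other 77 are called core members below (46 large, 31 small). Fau, Rack1 and Rpl36al, whose products are also part of the ribosome or bind it, fall outside the naming pattern and are given only beside the members. The study is a single group of 2 total RNA-seq libraries from mice of strain B6NCrl on postnatal day 0. Both lungs of a single pup went into a library, those of pup 1 as replicate 1 and those of pup 3 as replicate 2, and the labels name no treatment. Both pups carry pregnancy number 1 and the same donor identifier, sex was not collected, and RNA above 200 nt was isolated with the Ambion mirVana kit before 10 ng was used per library with spike-in RNAs. The SMARTer low-input kit is named through its manual. Whole lung holds many cell types, so fewer cells of a type and less RNA per cell cannot be told apart.

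Ribosomal proteins surround the ribosomal RNAs that decode messenger RNA in the small subunit and join amino acids in the large subunit. Every growing cell makes the core proteins in matched amounts, and their messenger RNAs typically start with a run of pyrimidines, the 5′ terminal oligopyrimidine (TOP) tract, through which mTOR signalling and Larp1 set their translation. Mammalian genomes also hold many intron-free copies of these genes, made by reverse transcription of their messenger RNAs, and a small set of paralogs, some of which are known for expression in muscle or testis.

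The library of pup 1 held 42189536 expected counts on genes, and that of pup 3 held 37026165. Levels between genes are compared in TPM, in which a count is divided by the effective length of the gene and scaled to a common total,, with mean ± SD over the 2 pups. With 2 pups an exact sign-flip test cannot give a p below 0.5, so no test is reported and every p-value is left out. Markers of lung epithelium (8 of 8), endothelium (6 of 6) and lung mesenchyme (6 of 6) were detected at TPM 1 or more in both pups. The summed TPM of 7 red cell genes was 55562 in pup 1 and 66581 in pup 3, and 9 of 10 cardiac muscle markers were detected, with summed TPM of 717 and 822.

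Most members were abundant in the tissue. Of the 83 members, 80 were detected at TPM 1 or more in both pups, 75 reached TPM 100, 47 reached TPM 500 and 10 reached TPM 1000. Across 12929 detected protein-coding genes outside the mitochondrial genome, 1305 reached TPM 100 and 66 reached TPM 1000 in both pups. The members' median was 574 TPM in pup 1 and 531 TPM in pup 3, against 15.2 and 16.0 TPM for detected protein-coding genes, a ratio of 35.4 ± 3.18 (SD, n = 2). Summed over members, the share of TPM was 5.49% for pup 1 and 5.12% for pup 3 (5.30 ± 0.261%). In counts they held 2.38% and 2.16% of each library, a smaller share, and the median deposited length was 669 bases for core members and 2412 bases for detected protein-coding genes. The members lie on 19 chromosomes, with 14 on chromosome 7 and 4 on the X chromosome.

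**Figure D1:**
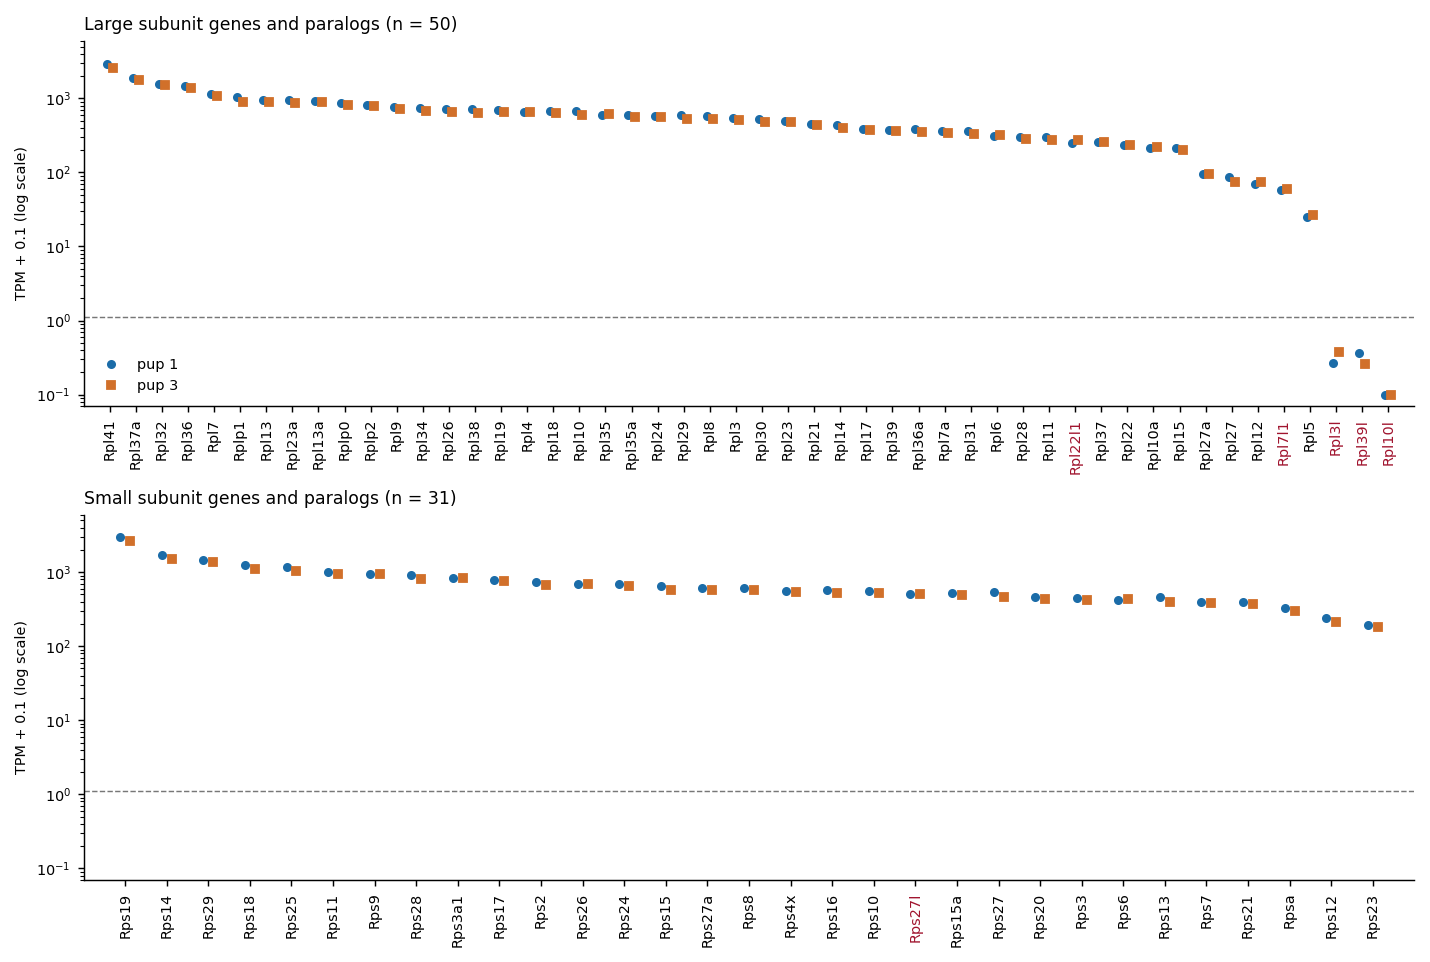
Level of 81 of the 83 members as deposited TPM plus 0.1 on a log scale, pup 1 as circles and pup 3 as squares, large subunit above and small subunit below, paralogs in red, with a dashed line at TPM 1. The points of the pups nearly coincide, and only Rpl3l, Rpl39l and Rpl10l lie below the line.

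The 2 pups gave almost the same profile. The coefficient of variation of a core member between pups had a median of 4.56% (range 0.129% to 11.9%) and was under 10% for 72 of 77 core members. Across the 77 core members the rank correlation (Spearman) of TPM between pups was 0.995, a description across genes that share a library and not a test. Within a pup, the levels of core members spread over 119-fold in pup 1 and 101-fold in pup 3. Shorter core members tended to have higher TPM (Spearman -0.36 across 77 genes), and effective length is the divisor of TPM, so both share it.

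Among small subunit genes Rps19 stood highest as deposited. Rps19 (chromosome 7, 24884371 to 24889806 on mm10), which is needed for maturation of the small subunit and is mutated in Diamond-Blackfan anaemia, was at 2942 TPM in pup 1 and 2655 TPM in pup 3. Rps14, which lies at the mRNA exit of the small subunit, was at 1698 and 1511 TPM. Rps29 was at 1446 and 1370 TPM. With sequence copies, defined below, Rps29 had 3049 and 2728 TPM, above Rps19 with its copies (2986 and 2690 TPM). Rps29 is a small zinc-binding protein of the head of the subunit, and Rps18 and Rps25 completed the top 5 of the subunit. Rps18 was at 1233 and 1113 TPM, and Rps25, which several viral entry sites need for initiation, at 1159 and 1026 TPM. The lower value of each of these genes came from pup 3. At the other end of the small subunit, Rps23, a protein of the decoding centre, was at 194 and 182 TPM, and Rps12 at 239 and 210 TPM. Rpsa (323 and 296 TPM), Rps21 (398 and 370 TPM) and Rps7 (392 and 379 TPM) were the next lowest.

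Among large subunit genes Rpl41 led. Rpl41 (chromosome 10, 128548114 to 128549305), whose coding sequence of 75 bases makes the smallest protein of the ribosome, was at 2880 TPM in pup 1 and 2588 TPM in pup 3. Rpl37a was at 1907 and 1743 TPM, Rpl32 at 1575 and 1530 TPM, Rpl36 at 1465 and 1370 TPM, and Rpl7 at 1141 and 1088 TPM. The order of these 5 genes was the same in both pups. The lowest core member was Rpl5, which carries 5S ribosomal RNA into the large subunit with Rpl11 and binds Mdm2 when free. Rpl5 had 24.7 TPM in pup 1 and 26.4 TPM in pup 3, from 861 and 787 counts. Rpl12 (68.8 and 73.0 TPM), Rpl27 (86.7 and 73.2 TPM) and Rpl27a (95.4 and 95.1 TPM) were the only other core members under 100 TPM in both pups. All 4 of these low genes have intron-free copies that took a larger number of counts than the gene itself, as described below.

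Large and small subunit genes differed little in their median level. The large subunit was lower in medians and in mean log2 values and higher in summed TPM. The median of the 46 core large subunit genes was 585 TPM in pup 1 and 549 TPM in pup 3, and that of the 31 core small subunit genes 616 and 567 TPM. Mean log2(TPM + 1) of all 51 large minus that of all 32 small subunit genes was -0.97 in pup 1 and -0.94 in pup 3 (-0.96 ± 0.02). The 3 members under TPM 1 are all large subunit paralogs, and over core members alone the difference was -0.39 and -0.37 (-0.38 ± 0.02). With the TPM of sequence copies added to each core member it was -0.17 and -0.16 (-0.17 ± 0.01). The log2 ratio of summed TPM over core members went the other way, 0.37 in pup 1 and 0.38 in pup 3, since the large subunit has more genes. As deposited, the large subunit genes were also more uneven. The SD of log2(TPM + 1) over core members was 1.26 and 1.23 in pups 1 and 3 for the large and 0.80 in both pups for the small subunit. The lowest core members, Rpl5, Rpl12, Rpl27 and Rpl27a, are large subunit genes with more counts on copies than on themselves. The SD of each subunit was not computed with copies added.

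Levels are given next by site on the ribosome, as deposited. At the stalk, the flexible arm that recruits elongation factors, Rplp1 stood at 1049 and 889 TPM, the anchor protein Rplp0 at 858 and 819 TPM, and Rplp2 at 804 and 780 TPM. Rpl12, at the base of the stalk, was more than 10-fold below all of these in both pups as deposited. With its sequence copies, defined below, Rpl12 had 272 and 260 TPM, while Rplp2 has no copy, so the gap was smaller. At the peptidyl transferase centre, where amino acids are joined, Rpl10 was at 683 and 599 TPM, Rpl8 at 579 and 530 TPM and Rpl3 at 536 and 517 TPM. These 3 genes lay within 1.5-fold of each other as deposited. With copies added Rpl10 had 1166 and 1090 TPM, Rpl8 was unchanged without a copy, and Rpl3 had 567 and 544 TPM. Of the 9 genes listed for the exit tunnel, through which the new protein leaves, Rpl23a was highest (946 and 871 TPM) and Rpl22 lowest (233 and 235 TPM).

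For the 5S particle, Rpl11 had 300 and 278 TPM while its partner Rpl5 had less than 10% of that level as deposited. With its copies added, as given below, Rpl5 lay above this deposited level of Rpl11 in both pups. The level of Rpl11 with its own copies is not given here. At the mRNA entry, Rps2 was at 735 and 669 TPM and Rps3, a protein with a known side role in DNA repair, at 446 and 423 TPM. Fau, which makes the entry protein eS30 fused to a ubiquitin-like domain, was at 551 and 524 TPM. At the mRNA exit, Rps14 exceeded Rps28 (906 and 807 TPM) and Rps26 (699 and 681 TPM). Rps27a, which makes ubiquitin fused to a ribosomal protein, was at 616 and 580 TPM. Rack1, a scaffold protein on the small subunit head, was at 382 and 358 TPM.

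Many counts that match a member's coding sequence were assigned to another locus. A sequence copy was defined as a gene outside the family with at least 95% identity over at least 90% of a member's coding sequence. This gave 397 copies of 72 members, and 11 members had none (among them Rps9, Rplp2, Rpl8, Rps27l, Rpl23, Rps20, Rps3, Rps21, Rpl3l and Rpl39l). Of the copies, 374 are annotated as processed pseudogenes, 14 as transcribed processed pseudogenes and 9 as protein-coding genes, and 24 have no mismatch over the matched coding sequence. Rpl21 had the most, 38. The copies held 189503 counts in pup 1 and 150329 counts in pup 3, which is 15.9% and 15.8% of the counts of members and copies together. These counts were concentrated: 28 copies had at least 1000 counts in both pups, whereas 54 were listed at 0 in both. Reads of a gene and of an identical copy cannot be told apart by sequence, so the level of each such member is uncertain.

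In 9 members the copies held more counts than the member in both pups: Rpl5, Rpl27, Rps27, Rps23, Rpl27a, Rpl12, Rpl15, Rps12 and Rpl28. Rpl5 had 861 and 787 counts, and its identical copy Gm15500 (chromosome 7, 114705217 to 114706235, a transcribed processed pseudogene) had 11692 and 9748 counts. Copies therefore took 93.1% and 92.5% of the counts of Rpl5 and its copies. Rps23 (4120 and 3281 counts) was exceeded by Rps23-ps1 (11764 and 9615 counts), which is identical over 99.1% of its coding sequence. Rpl27 had 1593 and 1164 counts, and its 5 copies held 86.5% and 87.2% of all counts of the gene and its copies. Rpl15 had 6259 and 5024 counts, and its copy Rpl15-ps3 had 10026 and 8418 counts. Rpl27a had 2771 and 2427 counts, and Gm7536 had 6502 and 5262 counts. For Rpl10a (52.1% and 48.1% on its only copy, Rpl10a-ps1) and Rpl31 (49.7% and 51.0%), the larger side changed between pups. For 49 members, under 5% of counts were on copies in both pups, and these include Rps19, Rpl41, Rps14 and Rpl32.

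**Figure D2:**
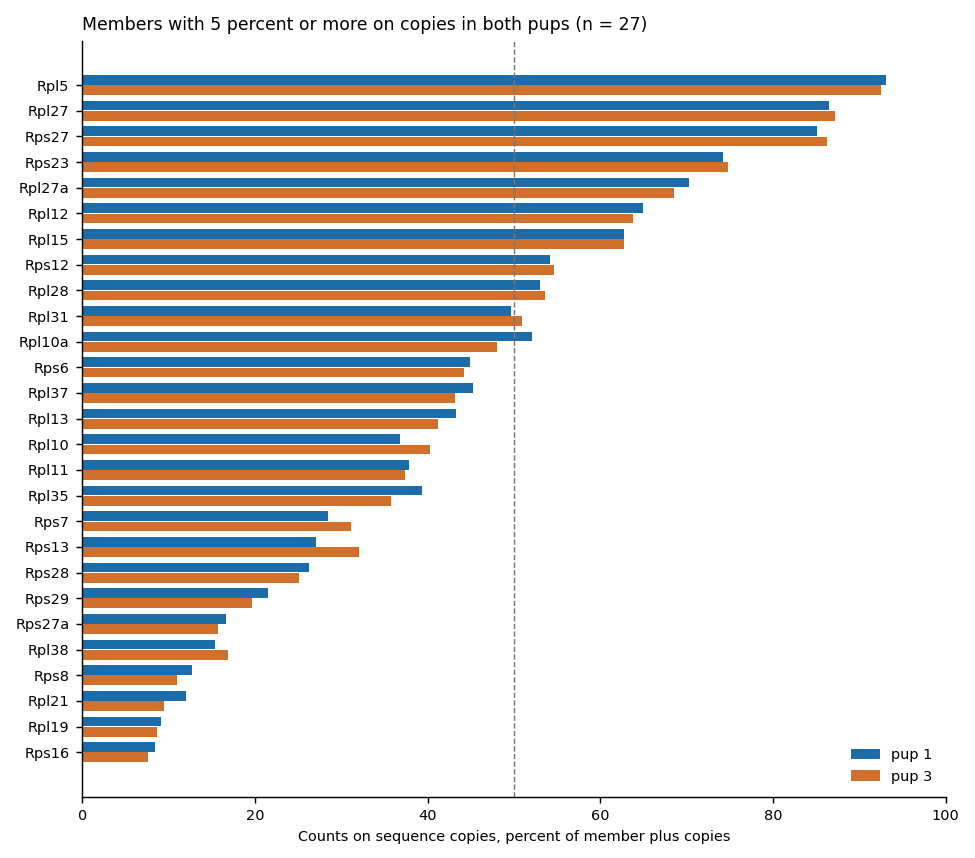
Percent of counts on sequence copies, out of the counts of a member and its copies together, for 27 of the 28 members at 5% or more in both pups, with a bar for each pup and a dashed line at 50%. The share is close to the same in both pups for each gene, and 9 genes exceed the line in both.

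With copies added, the core members lay closer together. The SD of log2 TPM over core members was 1.11 in pup 1 and 1.09 in pup 3 as deposited, and 0.79 and 0.77 with the TPM of each member's copies added. The span between the highest and lowest core member went from 119-fold and 101-fold to 13.1-fold and 11.6-fold. Rpl5 reached 421 and 412 TPM with its copies, Rps23 1322 and 1265 TPM, and Rpl27 1006 and 912 TPM. Adding TPM of loci with different annotated lengths is not exact. When counts of member and copies were instead divided by the member's own effective length, the spans were 18.3-fold and 16.8-fold. Members and copies together held 7.16% and 6.66% of TPM.

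Of the 6 paralogs, Rpl22l1 and Rps27l were near the deposited gene level of their parent, Rpl7l1 was lower, and Rpl3l, Rpl10l and Rpl39l were nearly absent. The sequences show how far the pairs can be told apart by reads. For each pair below, 60 bases of the coding sequence are given from GENCODE M21 transcripts, 5′ to 3′, with bases that differ between the pair in capitals. They start at the first base, except for the Rpl22 pair, which is shown from base 231 (Rpl22) and base 210 (Rpl22l1), the stretch with most identical bases.
Rpl3: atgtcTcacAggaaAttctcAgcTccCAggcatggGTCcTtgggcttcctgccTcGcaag
Rpl3l: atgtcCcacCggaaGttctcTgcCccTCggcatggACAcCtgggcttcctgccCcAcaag
Rpl10: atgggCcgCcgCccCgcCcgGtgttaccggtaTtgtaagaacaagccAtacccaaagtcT
Rpl10l: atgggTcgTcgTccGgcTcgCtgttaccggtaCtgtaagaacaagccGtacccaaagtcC
Rpl39: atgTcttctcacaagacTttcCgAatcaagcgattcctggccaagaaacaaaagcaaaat
Rpl39l: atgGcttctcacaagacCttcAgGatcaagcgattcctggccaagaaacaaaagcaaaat
Rpl22: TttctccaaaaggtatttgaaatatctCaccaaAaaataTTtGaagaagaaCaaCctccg
Rpl22l1: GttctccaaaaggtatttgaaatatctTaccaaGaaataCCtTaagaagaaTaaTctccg
Rpl36a: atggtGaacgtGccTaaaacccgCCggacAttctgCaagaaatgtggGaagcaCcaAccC
Rpl36al: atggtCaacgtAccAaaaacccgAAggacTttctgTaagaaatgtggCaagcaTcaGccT
Rps27: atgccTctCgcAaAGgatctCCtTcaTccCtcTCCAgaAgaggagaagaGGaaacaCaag
Rps27l: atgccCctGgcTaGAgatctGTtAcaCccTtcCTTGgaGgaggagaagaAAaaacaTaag

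Over the aligned coding sequence, identity was 74.3% for Rpl3 and Rpl3l, 84.7% for Rpl10 and Rpl10l, 85.0% for Rpl39 and Rpl39l, 70.8% for Rpl22 and Rpl22l1, 87.7% for Rpl36a and Rpl36al, 76.2% for Rps27 and Rps27l and 59.8% for Rpl7 and Rpl7l1. All of these lie below the 95% used to define a copy. The Rpl39 pair, at 153 coding bases, differs at 23 bases in all, 4 of them in the stretch shown.

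The 3 nearly absent paralogs are known for expression elsewhere. Rpl3l, a form of Rpl3 found in heart and skeletal muscle, had 5 counts in pup 1 and 7 in pup 3, or 0.17 and 0.27 TPM. Rpl3 had 20758 and 17034 counts, or 536 and 517 TPM, so the parent exceeded the paralog 3233-fold in pup 1 (exact 95% interval 1385 to 9957) and 1893-fold in pup 3 (919 to 4710). These intervals cover counting error only. Of the 10 cardiac markers, 9 were detected in the same libraries, with a median of 49.8 and 56.2 TPM and Myl7 highest at 288 and 358 TPM. Of 9 skeletal muscle markers, 6 were detected, and the median was 1.31 and 1.61 TPM. Rpl39l, which is known from testis, had 5 and 2 counts (0.26 and 0.16 TPM), against 374 and 360 TPM for Rpl39. In pup 1 the ratio was 1414-fold (606 to 4356). Rpl10l, an intron-free gene that replaces the X-linked Rpl10 in male germ cells, had 0 counts in both pups. Zero counts allow up to 3 counts per library, which is 0.101 TPM in pup 1 and 0.118 TPM in pup 3. Rpl10 stood at 683 and 599 TPM, at least 6790-fold higher in pup 1 and at least 5068-fold higher in pup 3 when set against that floor of 3 counts. The lower limits of the exact 95% interval, computed as for Rpl3, were 5521-fold and 4121-fold. None of 8 germ cell markers was detected, and 5 of them were listed at 0 in both pups.

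The other paralogs were expressed together with their parent. Rpl22l1 had 246 TPM in pup 1 and 271 TPM in pup 3, and Rpl22 233 and 235 TPM. Over all transcript models together, the paralog was thus slightly higher in both pups in TPM (log2 of parent over paralog -0.14 ± 0.09). In counts the parent was higher (3863 and 3383 against 3357 and 3135). Rps27l, a known p53 target, had 503 and 512 TPM and Rps27 535 and 464 TPM, so the order changed between pups (-0.03 ± 0.16). In counts Rps27l was higher in both, with 6505 and 5638. Most counts with the Rps27 coding sequence were on Rps27rt (chromosome 9, 114982366 to 114982739), an intron-free gene with an identical coding sequence that the naming pattern leaves out. It had 15394 and 12510 counts, or 1760 and 1681 TPM, while Rps27 had 2693 and 1987 counts. The near parity of Rps27 and Rps27l therefore holds only for the deposited split of counts between Rps27 and Rps27rt. Rpl36al, an autosomal relative of the X-linked Rpl36a, had 452 and 429 TPM and exceeded Rpl36a (382 and 349 TPM) in both pups. Rpl7l1, a protein of early large subunit assembly, was lower than Rpl7, with 58.3 and 60.2 TPM. Rpl7 exceeded it 19.6-fold in pup 1 (19.0 to 20.2) and 18.1-fold in pup 3 (17.5 to 18.7).

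Further related genes were set beside members for comparison. Rps4l, annotated as a transcribed processed pseudogene, had 170 TPM in both pups, and the X-linked Rps4x 557 and 544 TPM. Rps3a2, a processed pseudogene, had 9.44 and 11.5 TPM, against 832 and 843 TPM for Rps3a1. Rplp1 exceeded Rplp2 1.31-fold in pup 1 and 1.14-fold in pup 3. Rpl26l1 was not analysed here.

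**Figure D3:**
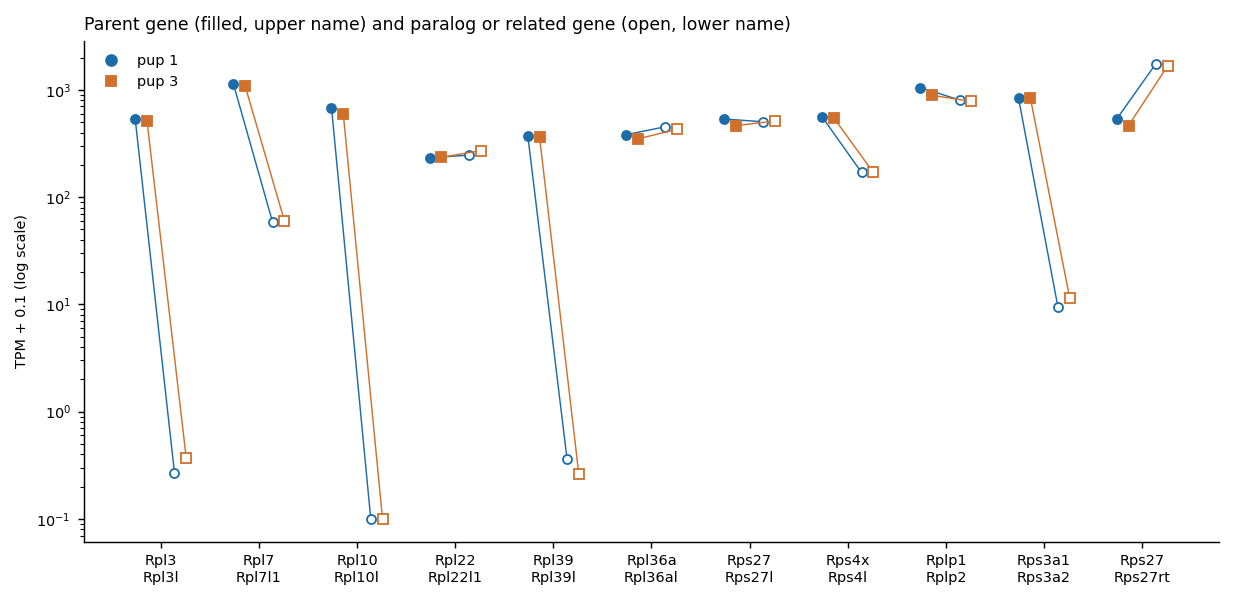
TPM plus 0.1 on a log scale for each parent gene (filled, upper name) and its paralog or related gene (open, lower name), with pup 1 as circles and pup 3 as squares. Rpl3l, Rpl10l and Rpl39l lie near the bottom of the scale. As deposited, Rpl22l1, Rpl36al and Rps27l lie beside their parents and Rps27rt above Rps27, with which it shares its coding sequence.

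The deposited transcript tables split the members into 371 transcript models. These comprise 178 protein-coding models, 116 with a retained intron, 48 non-coding processed transcripts, 10 marked for nonsense-mediated decay and 19 that GENCODE M21 does not hold. The leading model held a median of 95.4% of a gene's abundance. Of 82 members with any abundance, 76 were led by a protein-coding model, and in 65 such models held over 90% in both pups. Of the 6 others, 5 were led by a model annotated as something other than protein-coding and 1 by an unmatched model. In Rps20 the retained-intron model Rps20-201 held 92.9% in pup 1 and 93.2% in pup 3. Its protein-coding model Rps20-203 held 5.66% and 5.68%. In Rpl35 the processed transcript Rpl35-203 held 88.7% and 86.6%, and in Rpl23, another protein that binds Mdm2 when free, Rpl23-204 held 70.6% and 71.2%. Rpl12 was led by the decay model Rpl12-201 (67.3% and 71.3%), with 22.6% and 13.7% on its coding model Rpl12-203, and Rpl5 by the retained-intron model Rpl5-205 (50.6% and 54.8%). Rpl13a was led by a model without a match in GENCODE M21 (41.5% and 45.9%), so its coding status is not given here.

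**Figure D4:**
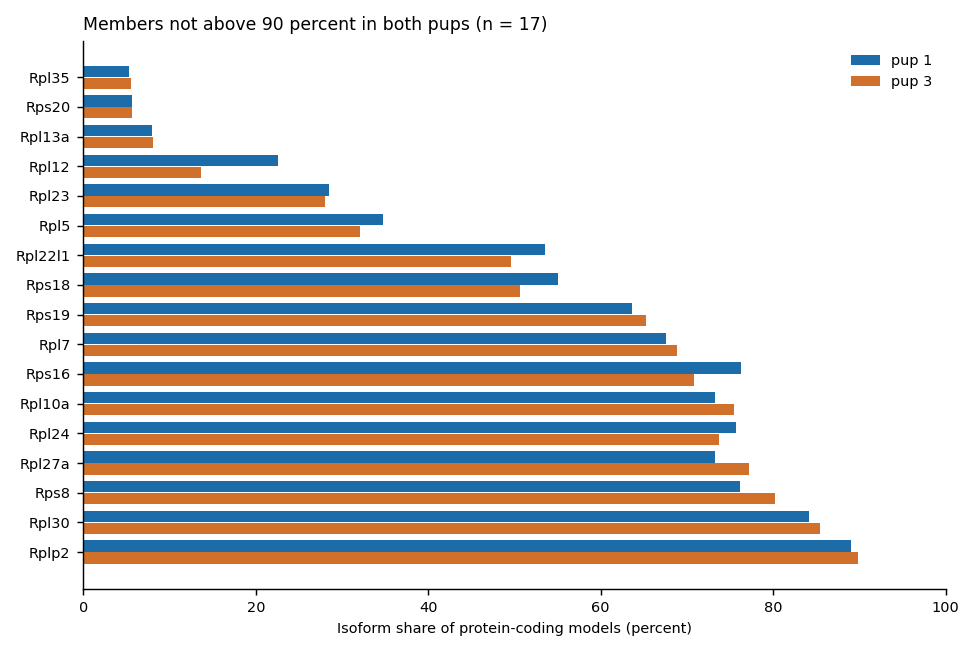
Percent of a gene's deposited isoform abundance on protein-coding models, a bar for each pup, for the 17 members that were not above 90% in both pups. Rpl35, Rps20 and Rpl13a are under 10%, where models without a match in GENCODE M21 (most of Rpl13a) are not counted as coding, and the bar of Rpl12 is longer in pup 1.

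These shares are model estimates from short reads over overlapping models, in which a short model needs few counts for a high abundance. In Rps20 the retained-intron model had 6646 and 5374 counts and the coding model 3023 and 2449 counts. Rps19, the highest member as deposited, also had a mixed pattern. Its coding model Rps19-210 held 52.5% and 50.9%, the retained-intron model Rps19-206 24.1% and 20.5%, and the decay model Rps19-205 12.1% and 14.2%. In contrast Rpl41 had 98.7% and 98.4% on coding models, and 22 members had only a single model. The paralog Rpl22l1 was mixed, with 46.45% and 44.42% on its leading coding model Rpl22l1-206. Its processed transcript Rpl22l1-209 held 34.35% and 38.04%. In its parent Rpl22 the coding model Rpl22-201 held 89.95% and 88.44%. Rpl22-201 had 2533 and 2138 counts, and Rpl22l1-206 had 1571 and 1409 counts. At the similar gene levels of this pair, the leading coding model of the parent was thus the higher in both pups. TPM summed over all coding models was not compared.

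The start regions of the members were searched for short pyrimidine-rich letters, because the TOP tract is the shared feature of their messenger RNAs. RefSeq promoter windows (GRCm38.p6, 250 bases before to 50 after an annotated start) were found for 63 of 83 members, as 75 entries. Within 10 bases before to 20 after the start, the letters CTTTC on the sense strand were in 20.0% of member entries and in 3.74% of all 32851 entries. On the opposite strand of the same window the shares were 4.00% and 3.65%. The letters CTTCC, which can share bases with a neighbouring CTTTC, were in 18.7% of member entries and 6.36% of all entries on the sense strand. The 30-base windows of 6 members are printed to show the matches, with CTTTC in capitals and on the gene's own strand, the annotated start being base 11. They are Rplp2 (chr7:141447641-141447670, plus strand), Rpl38 (chr11:114668570-114668599, plus), Rps10 (chr17:27635225-27635254, minus), Rps27 (chr3:90213629-90213658, minus), Rpl7a (chr2:26910797-26910826, plus) and Rpl12 (chr2:32961702-32961731, plus).
Rplp2: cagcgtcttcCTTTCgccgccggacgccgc
Rpl38: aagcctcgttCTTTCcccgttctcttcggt
Rps10: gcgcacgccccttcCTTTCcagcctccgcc
Rps27: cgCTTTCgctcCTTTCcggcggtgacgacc
Rpl7a: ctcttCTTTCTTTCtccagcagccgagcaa
Rpl12: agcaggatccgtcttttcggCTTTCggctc

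In Rplp2 and Rpl38 the annotated start itself is the first base of the match. In Rpl7a the match begins before the start, in Rps10 and Rpl12 after it, and Rps27 has a match on either side. In Rps10, Rps27 and Rpl7a the annotated start and the printed bases on both sides of it are pyrimidines (c or t), so the run of pyrimidines spans the start. In Rpl12 the annotated start is a g, so a match in the window is not always a tract at the annotated start. The letters CGGAAG, the core of sites bound by ETS factors such as GABP, were on either strand of the whole 300-base window in 45 of 75 member entries (60%) and in 16.9% of all entries. The letters TATAAA, in the 50 bases before the start, were in 1.33% and 2.63%. These matches are descriptions of the printed letters and not binding sites, and the levels of members with CTTTC ran from Rpl39l (0.21 ± 0.071 TPM) to Rpl13a (897 ± 14.9 TPM).

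The pups were also set against each other, as 1 library against 1 library and without a test. Counts were scaled by TMM over all genes, and a gene with 50 or more counts in both pups together was called when it differed at least 2-fold and its exact 95% counting interval left out 1. Of 80 members with enough counts, 0 were called, where 1.40% of 15790 genes were. At 1.5-fold, 0 members were called against 5.06% of genes. Small differences nevertheless ran in a single direction: 78 of 80 members were higher in pup 1, where 51.0% of all tested genes were, and for 72 the counting interval lay above 1 (24.6% of all genes). For 0 members it lay below 1 (21.6% of all genes). The interval narrows with depth, and 76 members had at least 5000 counts over both pups, where a tested gene needed only 50. No share of intervals at matched depth was computed. The median log2 ratio of pup 1 over pup 3 was 0.17 over members (1.12-fold, range -0.05 to 0.32) and 0.01 over all tested genes. All 32 small subunit and 46 of 48 large subunit members were higher in pup 1.

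Among the 80 members with enough counts, Rplp1, Rpl27, Rps13 and Rps27 were among the 5 with the largest ratios. Rplp1 had 13407 counts in pup 1 and 9663 in pup 3 (log2 ratio 0.32 after scaling). Rpl27 had 1593 and 1164 counts (0.30), and Rps13 7122 and 5239 counts (0.29). Rpl22l1 (-0.05) and Rpl5 (-0.02) were the only members with enough counts and a ratio below 0. Rpl35 and Rpl10a (both 0.03) and Rpl7l1 (0.04) followed.

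The same shift was present in other genes of similar length. Among 3358 other protein-coding genes with at least 5000 counts over both pups, 57.4% were higher in pup 1, with a median log2 ratio of 0.03. Among the 329 of these with a deposited length of up to 1000 bases, 299 (90.9%) were higher in pup 1, with a median of 0.16 (middle 50% from 0.08 to 0.23). The 68 members of that length and depth had a median of 0.17, and 67 of 68 were higher in pup 1. Above 4000 bases, 30.9% of 605 other genes were higher in pup 1 (median -0.07). The members' ratio was thus close to that of other short, well-counted genes in the same pair of libraries, and the difference between members and these genes was not tested. Red cell markers (6 of 7 genes) and cardiac muscle markers (8 of 10, median log2 ratio -0.22) were lower in pup 1. Of the 8 epithelial markers, 6 were higher in pup 1 in scaled counts (median log2 ratio 0.10, range -0.09 to 0.37). Their part in the result was not tested. With TPM + 1 in place of TMM-scaled counts, 68 of 80 members were higher in pup 1, with a median of 0.08.

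**Figure D5:**
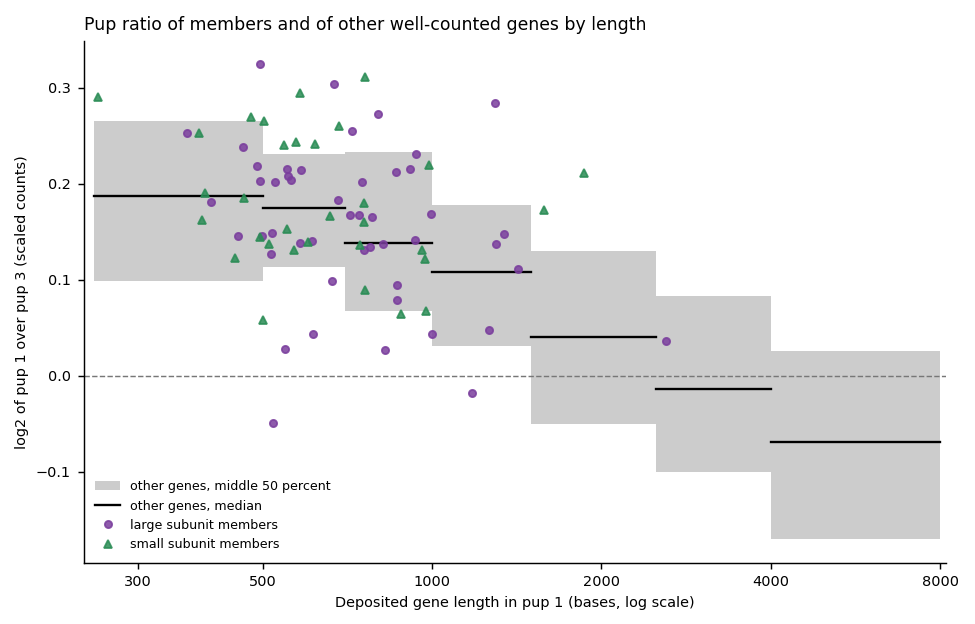
Log2 ratio of pup 1 over pup 3 in scaled counts against deposited gene length in pup 1 (log scale), large subunit members as circles and small subunit members as triangles. Black lines give the median and grey boxes the middle 50% of other protein-coding genes with at least 5000 counts, in 7 length classes (the lowest and highest are open and drawn to the ends of the axis). Members scatter around the other genes of their length, for which the median falls from 0.19 at up to 500 bases to -0.07 above 4000 bases.

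Other genes of the translation machinery are given by list, and differences from the members were not tested. All 77 mitochondrial ribosomal protein genes, which build the separate ribosome of mitochondria, were detected. Their median was 59.9 ± 1.65 TPM, and 66 of 77 were higher in pup 1 (median log2 ratio 0.12). Of the elongation factor genes 8 of 9 were detected, with a median of 147 TPM and 7 of 8 higher in pup 1 (0.02). Eef1a1, which delivers aminoacyl-tRNA, led them with 2645 and 2728 TPM. For 29 initiation factor genes the median was 89.3 TPM, and 16 were higher in pup 1 (0.03). The list of 15 TOP messenger RNAs from outside the ribosome had a median of 179 TPM and a median ratio of 0.01. The 35 ribosome assembly genes matched had a median of 25.1 TPM, and 16 RNA polymerase I genes and factors a median of 14.2 TPM. Larp1, Mtor and 11 other genes of TOP control had a median of 16.1 TPM. No gene of these lists was called between pups. Outside the naming pattern, Fau (log2 ratio 0.16), Rack1 (0.19) and Rpl36al (0.16) were higher in pup 1.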

How the data were processed

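Total RNA-seq of lung from 2 pups was used. Expected counts, which split reads shared between features and need not be whole, were taken as deposited and rounded for ratios. TPM and FPKM are the authors' values per effective length, per the file headers, and isoform shares are deposited percent values. The text files deposited with the libraries name assembly mm10 and annotation M4. The sources used here give no aligner, counting program or strand setting, so genes that overlap others are uncertain. GENCODE M21, on the same assembly, gave symbols, biotypes and coordinates, matched by gene identifier (42462 of 43346 genes).

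Members were chosen by symbol and biotype. The members, lists and naming rule were chosen with earlier results of these data known. The naming rule takes the 5 highest and 5 lowest members of each subunit, all paralog pairs and structural groups, members under TPM 1, members led by a non-coding model and the 5 largest pup ratios in each direction. It also takes the 3 highest genes of other lists, of which few are printed. Results for some genes are not reported here. Sequence copies, motifs, length classes, core members and Rps27rt were added after seeing the data, and other genes were named after their values were seen.

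Pup ratios used TMM (edgeR 4.0.16, R 4.3.3) with a prior count of 0.5 and exact conditional binomial intervals. They were checked on simulated counts with counting error alone, so the check does not cover shared reads or spread between pups. Copies were found with BLAST 2.17.0: a hit on the sense strand, at least 95% identity over 90% of the member's coding sequence, covering at least 50% of the copy's transcript. Pairs were aligned with Biopython 1.88. Coding sequences are those of the leading complete coding model, or the longest where a gene had under 50 counts. Alternatives used DESeq2 1.42.0 size factors, total counts and spike-ins. Without molecular identifiers, reads are not independent molecules, so intervals and limits at a count of 0 hold counting error alone. The labels put both libraries under 1 donor identifier, so SDs over 2 pups rest on the pup numbers and may be technical.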

Additional observations from a re-analysis of the deposited data

How the results depend on the processing

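The members' median stayed near 35 times that of detected protein-coding genes: 35.4 in TPM, 33.2 to 37.7 when either pup was left out. The members' share of the library was 5.30% of TPM (5.12% to 5.49% with a pup left out), 2.27% of counts, 6.14% of protein-coding TPM outside the mitochondrial genome, 5.83% with pseudogenes named after members and 6.91% with sequence copies. The large minus small difference of -0.96 (-0.97 to -0.94 with a pup left out) was -0.15 as a log2 ratio of medians, -1.10 with a pseudocount of 0.1, -0.45 over members at TPM 1, -0.89 in counts, -0.38 over core members and -0.17 with copies, and it reversed to 0.35 as a log2 ratio of summed TPM, which counts 51 against 32 genes. The median pup ratio of 0.17 was 0.13 with total counts, 0.17 with DESeq2 size factors or with copies added, 0.31 with spike-ins and 0.084 on TPM + 1, and members higher in pup 1 numbered 75, 78, 79 (with copies), 80 and 68. Spike-in scaling, which shifts all genes by 0.14, rests on 317 and 316 counts. No member was called under any of these scalings. Counts of named pseudogenes equalled 7.03% of the members' counts (6.95% to 7.12% with a pup left out), and their TPM 9.96% of the members' TPM. The copies' share of 15.8% (15.8% to 15.9%) was 15.3% at 99% identity and 16.3% without a minimum share of the copy. Of the pairs, Rpl22 over Rpl22l1 reversed from -0.14 to 0.16 in counts, which are not divided by length. Rps27 over Rps27l ran from -0.14 to 0.089 when a pup was left out and was -1.39 in counts, and Rpl7 over Rpl7l1 went from 4.23 to 2.31 in counts. A pup ratio has no value with a pup left out. No paired analysis was possible because there is only 1 group. Depth limits the values of paralogs with under 10 counts, and shared sequence those of members with copies.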

Other observations

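Some copies with enough counts were called at 2-fold between pups. Their counts are estimates that split shared reads, which the counting interval does not cover. Of 104 copies with enough counts, 10 were called at 2-fold (7 higher in pup 1, 3 higher in pup 3), where 1.40% of all tested genes were. Of 80 members with enough counts 0 were called, which is near the share over all genes. Of these members 76 had at least 5000 counts over both pups, and no share was computed for copies and members at matched depth. Gm4294, a processed pseudogene with the Rpl15 sequence, had 504 counts in pup 1 and 0 in pup 3, while Rpl15 itself had 6259 and 5024 counts. Gm10243, a copy of Rpl35a, had 56.7 and 280 expected counts, and Rpl35a 7590 and 6192 counts. Rpl6l, a copy of Rpl6, had 70.6 and 22.4 expected counts, against 11557 and 10093 for Rpl6. These copies were named after their values were seen.

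The level of Rps27 rests on a model of 255 bases, the shortest of any core member, which leaves few positions for a read. With the counts of Rps27rt and its other copy divided by that length, Rps27 would be the highest member, at 3489 TPM. With the deposited TPM of the copies added it had 2296 TPM in pup 1 and 2145 TPM in pup 3.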
